A study of Mus musculus with 6 samples.

Results

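The 48 genes described here encode proteins that copy DNA and divide cells, 25 for replication and its control and 23 for mitosis. They were chosen by symbol from a list of the 2 processes, by a rule that uses no measured value but was set with earlier results of these data known, and a gene with several RefSeq entries was read from the entry with the highest mean. Of the 16819 symbols in the table of wild-type and Ring-deficient cells, 47 were members (24 for replication and 23 for mitosis), and Orc6 was not analysed here. The table of cells with a beta-catenin allele held 45, without Bub1 and Tpx2.

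The libraries hold messenger RNA of intestinal stem cells that were sorted on GFP made from the Lgr5 gene, which marks the dividing cells at the base of small-intestinal crypts, of C57BL/6 mice killed 6 days after tamoxifen, given in 3 injections. WT cells (2 libraries) were of the strain Lgr5Gfp-CreERT2, in which a tamoxifen-dependent Cre is tied by name to Lgr5. RingKO cells (2 libraries) had the same strain with Ring1a-/- Ring1bf/f, so that Ring1a was missing in every cell of the animal and Ring1b was floxed for the Cre. Bcat cells (1 library) carried Lgr5Gfp-CreERT2 with Ctnnb1-ex3, an allele of the beta-catenin gene, and Bcat_RingKO cells (1 library) carried Ctnnb1-ex3 together with Ring1a-/- Ring1bf/f. All 4 groups thus shared the Lgr5 allele, the Cre and tamoxifen, and Ring1a (symbol Ring1) and Ring1b (symbol Rnf2) are the ubiquitin ligases of the Polycomb complex PRC1, a silencer of genes. The labels do not say whether the libraries of a group came from separate mice or from pools, so the spread behind each p-value is that of these libraries and could be technical.

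A cell that is about to divide first licenses its origins: the origin recognition complex with Cdc6 and Cdt1 loads a ring of the 6 proteins Mcm2 to Mcm7 on DNA, and geminin (Gmnn) blocks a repeat by binding Cdt1. At the start of S phase Cdc45 and the GINS proteins turn the ring into the active helicase, and polymerases work behind it on the Pcna clamp. Mitosis is started by cyclin B with Cdk1 and ended by the anaphase-promoting complex, whose activator Cdc20 is held back by the spindle checkpoint. Many replication genes are driven by E2F factors, and many mitosis genes through CHR elements read by the MuvB and Foxm1 proteins. Lgr5+ crypt cells divide about daily, which is fast for cells of an adult body.

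In RingKO some genes of both processes were lower than in WT. The authors' test called 10 of 47 members lower and 0 higher at an adjusted p under 0.05. It called 3 of the 24 replication genes, which were Cdt1, Mcm10 and Pole, and 7 of the 23 mitosis genes, which were Ccna2, Foxm1, Aurkb, Bub1b, Mad2l1, Kif11 and Mki67. Over all 18376 entries the same rule called 1.76% lower and 3.14% higher, and over the 7939 entries with a mean of at least 50 normalised reads it called 3.69% lower. At an unadjusted p under 0.05, 25 members were lower and 0 higher, beside 6.72% of all entries and 14.5% of those with a mean of at least 50 that were lower, and edgeR, DESeq2 and limma called 0 higher. The deposited log2 fold change was below 0 for 46 of 47 members, the exception being Ccne2 with 2 to 11 reads a library, and for 72.3% of the entries with a mean of at least 50 (54.3% in edgeR with TMM scaling). Its median was -0.54 for replication and -0.60 for mitosis, beside -0.21 for all entries with a mean of at least 50. In edgeR with TMM, a scaling that trims extreme genes, the medians were -0.40 over the 22 replication genes tested, -0.42 over the 21 mitosis genes and -0.03 over the entries. TMM factors taken over all entries, without that fit's filter on low counts, shift a log2 value by 0.15 from the deposited scaling. Birc5, which the authors' deposited table puts at -0.06, was at 0.03 ± 0.42 (SE) in that fit.

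The promoters of 6 members are printed to show where the words known from the 2 processes lie, and were chosen for holding such a word. A search on both strands of the 250 bases before the RefSeq start covered the 37 members with an entry in the promoter table. E2F words were TTTCCCGC, TTTGGCGC, TTTCGCGC and TTTGCCGC, the CHR word was TTTGAA, and the CCAAT box was searched as CCAAT. An E2F word was found for 5 of 19 replication genes (26.3%, Mcm5, Mcm6, Mcm7, Orc1 and Cdc6) and for 1 of 18 mitosis genes (Cdk1), beside 2.16% of the 27025 genes in the promoter table and 4.39% of the 6010 with a mean of at least 50. The CHR word was found for 7 of 18 mitosis genes (38.9%, Ccnb2, Cdk1, Cdc20, Ube2c, Kif11, Mki67 and Top2a) and for 3 of 19 replication genes, beside 18.3% and 11.2%. A CCAAT word stood before 73.7% of the replication and 83.3% of the mitosis genes, beside 37.5% and 39.2%. Such matches describe letters and not binding, and the same holds for windows without one.

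The replication promoters with an E2F word and the smallest adjusted p in RingKO are those of Mcm5 (chr8:75109259-75109508, plus strand), Mcm7 (chr5:138171884-138172133, minus strand) and Orc1 (chr4:108579204-108579453, plus strand), in RefSeq's build GRCm38.p6, 5' to 3' with E2F and CCAAT words in capitals. In Mcm5 2 E2F words overlap between 153 and 142 bases before the start, in Mcm7 the word lies 165 to 158 bases before it, and in Orc1 27 to 20 bases. None of the 3 genes was called in RingKO.
Mcm5: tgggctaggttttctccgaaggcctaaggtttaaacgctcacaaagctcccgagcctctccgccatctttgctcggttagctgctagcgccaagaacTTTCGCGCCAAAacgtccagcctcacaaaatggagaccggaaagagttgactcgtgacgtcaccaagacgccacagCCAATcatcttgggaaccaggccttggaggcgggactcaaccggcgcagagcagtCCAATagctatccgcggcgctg
Mcm7: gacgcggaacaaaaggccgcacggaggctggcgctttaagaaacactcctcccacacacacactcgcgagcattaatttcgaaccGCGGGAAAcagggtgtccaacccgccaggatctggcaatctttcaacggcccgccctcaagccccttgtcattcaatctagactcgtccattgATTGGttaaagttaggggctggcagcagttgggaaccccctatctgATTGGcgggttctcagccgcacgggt
Orc1: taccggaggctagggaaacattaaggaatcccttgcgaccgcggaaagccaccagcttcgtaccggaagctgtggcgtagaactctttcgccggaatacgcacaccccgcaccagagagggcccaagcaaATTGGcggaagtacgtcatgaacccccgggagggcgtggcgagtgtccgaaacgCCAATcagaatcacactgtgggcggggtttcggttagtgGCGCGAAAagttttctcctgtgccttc

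The mitosis promoters with a CHR word, by the same order, are those of Kif11 (chr19:37376132-37376381, plus strand), Mki67 (chr7:135716380-135716629, minus strand) and Cdc20 (chr4:118437344-118437593, minus strand), with CHR and CCAAT words in capitals. The CHR word lies 19 to 14 bases before the start in Kif11 and 18 to 13 bases before it in Cdc20, and Mki67 has 2 of them, at 116 to 111 and 98 to 93 bases. Kif11 and Mki67 were called lower in RingKO, and Cdc20 was not (authors' adjusted p = 0.0824).
Kif11: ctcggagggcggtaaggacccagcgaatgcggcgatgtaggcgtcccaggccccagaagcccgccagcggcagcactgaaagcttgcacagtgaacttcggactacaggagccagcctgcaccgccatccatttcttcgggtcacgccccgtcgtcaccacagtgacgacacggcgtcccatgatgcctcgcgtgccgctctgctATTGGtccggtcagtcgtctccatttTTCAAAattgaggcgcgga
Mki67: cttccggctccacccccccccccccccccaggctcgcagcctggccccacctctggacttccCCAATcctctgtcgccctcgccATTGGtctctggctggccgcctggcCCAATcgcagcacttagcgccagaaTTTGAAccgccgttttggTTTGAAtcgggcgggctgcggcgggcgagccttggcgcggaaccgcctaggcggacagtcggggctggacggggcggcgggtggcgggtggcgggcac
Cdc20: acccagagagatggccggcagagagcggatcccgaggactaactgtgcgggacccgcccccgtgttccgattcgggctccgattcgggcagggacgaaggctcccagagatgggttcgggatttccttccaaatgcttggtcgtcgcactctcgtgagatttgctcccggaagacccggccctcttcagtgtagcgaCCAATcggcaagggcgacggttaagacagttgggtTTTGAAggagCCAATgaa

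The library totals and the targeted genes set the frame for all values. The WT libraries held 6753789 and 6294932 assigned reads, the RingKO libraries 2911422 and 2651201, the Bcat library 922153 and the Bcat_RingKO library 4470853. Within a group the libraries are called A and B, letters with no tie to the labels' replicate numbers. The WT libraries had 484 and 363 reads of Ring1 against 9 and 11 in the RingKO libraries. Rnf2 was not called, with 220 and 246 WT reads and 142 and 103 RingKO reads. Its scaled log2 fold change was 0.16 in the authors' deposited table and 0.34 ± 0.19 (SE) in edgeR. Counts over the whole gene do not show whether its floxed part was lost. In the Bcat pair Ring1 had 24 reads in Bcat and 43 in Bcat_RingKO, a ratio of 0.358 after scaling. The sort marker Lgr5 was read 942 and 922 times in WT and 461 and 222 times in RingKO, before scaling to library size. After scaling, its log2 fold change was -0.36 in the authors' deposited table and -0.19 ± 0.27 (SE) in edgeR, and Lgr5 was not called. In bulk RNA fewer cycling cells and less RNA per cycling cell cannot be told apart.

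Among the licensing genes Cdt1, which loads the helicase, fell. It had 1042 and 1068 normalised reads in WT and 701 and 543 in RingKO, so that both RingKO libraries lay below both WT libraries, as they did for 51.9% of entries with a mean of at least 50. The log2 fold change was -0.58 ± 0.15 (SE, edgeR; authors' adjusted p = 0.00777). Its inhibitor Gmnn had 423 and 378 in WT and 325 and 248 in RingKO, again without overlap, and was not called (-0.30 ± 0.16, authors' adjusted p = 0.370). Orc1, the subunit that the complex gains before S phase, had 102 and 95.1 in WT and 72.5 and 58.9 in RingKO and was not called (authors' adjusted p = 0.627). Cdc6, the loading ATPase, was counted on an entry with 5 to 20 reads a library.

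The 6 helicase genes stood lower in RingKO without passing the threshold. Mcm2 had 1657 and 1683 normalised reads in WT and 1304 and 919 in RingKO. Mcm6 had 1962 and 2126 in WT and 1842 and 1071 in RingKO. Mcm7 had 1928 and 1989 in WT and 1572 and 922 in RingKO. On the deposited scaling both RingKO libraries were below both WT libraries in all 6 genes, beside 51.9% of entries with a mean of at least 50, but after TMM library A lay between the WT libraries for Mcm4 and Mcm6. Library A kept 78.1% to 90.1% of the WT mean while library B kept 47.1% to 55.0%. On that deposited scaling the median log2 fold change of entries with a mean of at least 50 was itself -0.21. Without RingKO library B the edgeR log2 fold changes of the 6 genes ran from -0.21 (Mcm2) to -0.0016 (Mcm6). Without RingKO library A they ran from -0.87 (Mcm7) to -0.64 (Mcm2), so that most of the difference came from library B. The log2 fold changes ran from -0.31 ± 0.22 (Mcm6) to -0.48 ± 0.22 (Mcm7) in edgeR, and the authors' adjusted p was 0.103 for Mcm2 and higher for the other 5. On a scale per length (RPKM), the WT level of these subunits of the same ring ran from 40.4 and 45.4 for Mcm4 to 156 and 165 for Mcm6.

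Of the genes that fire origins, Mcm10, which binds the helicase as it is activated, had the lowest value of the 47 members for the log2 fold change in the authors' deposited table. It had 525 and 509 normalised reads in WT and 300 and 243 in RingKO. Both RingKO libraries lay below both WT libraries, as they did for 51.9% of entries with a mean of at least 50. The log2 fold change of Mcm10 was -0.75 ± 0.15 (SE, edgeR, with authors' adjusted p = 0.00265). The GINS subunit Gins2 had 327 and 300 in WT and 193 and 187 in RingKO, a change of -0.54 ± 0.15 that missed the threshold (authors' adjusted p = 0.0849). Gins1 (25 to 96 reads) and Cdc45 (7 to 32 reads) were not called.

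Behind the helicase, Pole, the catalytic subunit of the leading-strand polymerase, fell. It had 534 and 586 normalised reads in WT and 325 and 287 in RingKO, without overlap. RingKO also lay below WT without overlap for 51.9% of entries with a mean of at least 50. The log2 change of Pole was -0.69 ± 0.14 (SE, edgeR, with authors' adjusted p = 0.00510). Rrm1, the large subunit of ribonucleotide reductase, had 1329 and 1377 in WT and 938 and 554 in RingKO. Its change of -0.68 ± 0.21 was as large as that of Pole but the RingKO libraries lay further apart, and it was outside the authors' threshold (adjusted p = 0.0537) and inside that of DESeq2 (adjusted p = 0.0304). The small subunit Rrm2 (-0.30 ± 0.17) and the primase subunit Prim1 (-0.39 ± 0.15) were not called. Pcna, the sliding clamp, was at 1368 and 1448 in WT and 1383 and 870 in RingKO, so that RingKO library A lay between the WT libraries.

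The factors that open S phase were not called either. E2f1 had 311 and 303 normalised reads in WT and 264 and 191 in RingKO, E2f2 had 381 and 372 in WT and 288 and 312 in RingKO, and the cyclin Ccne1 had 174 and 166 in WT and 136 and 87.6 in RingKO. Their log2 fold changes were -0.25 ± 0.17, -0.14 ± 0.14 and -0.42 ± 0.21 (SE, edgeR). Ccne2 and Tyms, the thymidylate synthase, were counted on entries with 1 to 11 reads.

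**Figure D1:**
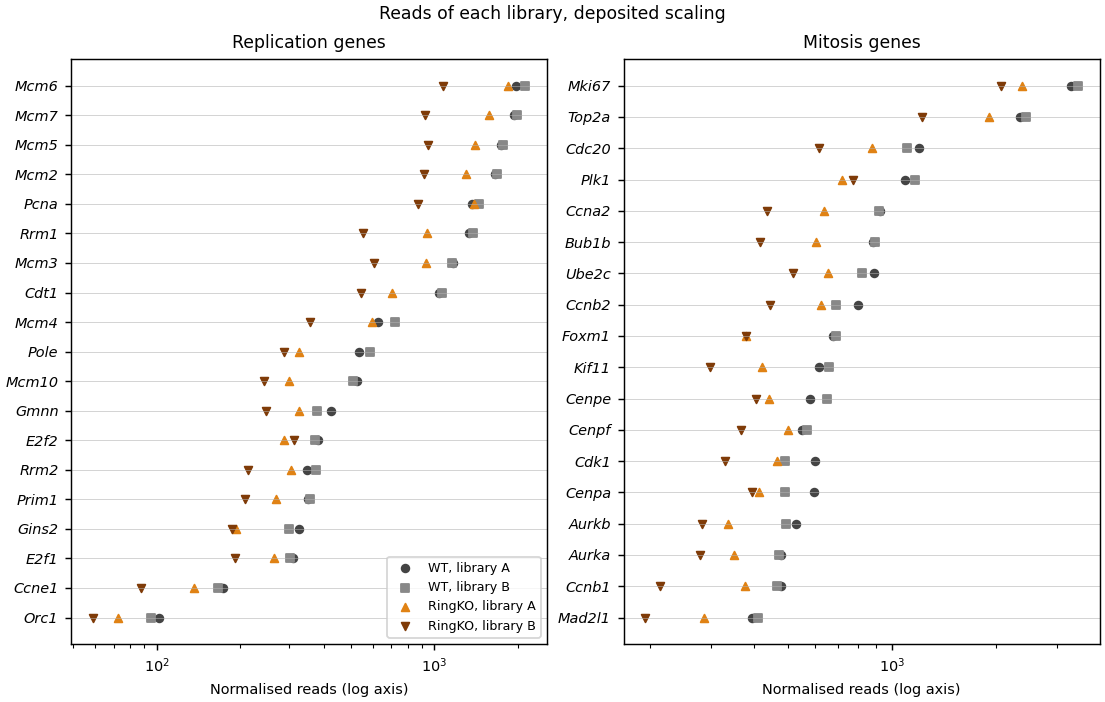
Normalised reads (log axis, deposited scaling) of the 37 members with a mean of at least 50, one row per gene, with 1 point for each WT and RingKO library. The WT points lie close together for most genes, while RingKO library B lies left of library A for most genes and both lie left of WT except for Pcna.

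In mitosis, Foxm1, the factor that drives many G2 and M phase genes, fell to nearly the same level in both RingKO libraries. It had 678 and 692 normalised reads in WT and 379.4 and 379.1 in RingKO, and the edgeR log2 fold change was -0.67 ± 0.13 (authors' adjusted p = 0.00410). Ccna2, the cyclin of S phase and G2, had 924 and 916 in WT and 635 and 437 in RingKO and fell by 0.60 on the log2 scale (SE 0.17, edgeR; authors' adjusted p = 0.00759), though edgeR itself did not call it (adjusted p = 0.0601). The B cyclins were not called: Ccnb1 had 479 and 466 in WT and 377 and 214 in RingKO, and Ccnb2 had 800.2 and 688 in WT and 624 and 444 in RingKO. Their kinase Cdk1 had 601 and 492 in WT and 465 and 330.3 in RingKO, close to its lower WT library in RingKO library A. Of the kinases that act at the spindle, Aurkb, the chromosomal passenger kinase, fell from 530 and 495 to 335 and 283 (authors' adjusted p = 0.0348), while Aurka (authors' adjusted p = 0.148) and Plk1 (0.0655) were not called.

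The spindle checkpoint genes Bub1b and Mad2l1 fell by the authors' test and were not called by edgeR (adjusted p = 0.0519 and 0.0831), and DESeq2 called Bub1b (adjusted p = 0.0303) and not Mad2l1 (0.151). Bub1b, which encodes the checkpoint protein BubR1, had 882 and 897 normalised reads in WT and 604 and 415 in RingKO, which is -0.63 ± 0.17 on the log2 scale (SE, edgeR; authors' adjusted p = 0.00536). Mad2l1, whose product binds Cdc20, had 393 and 410 in WT and 286 and 194 in RingKO (-0.57 ± 0.18, authors' adjusted p = 0.0471). Neither gene overlapped between the genotypes, and RingKO also lay below WT without overlap for 51.9% of entries with a mean of at least 50. The partners of the anaphase-promoting complex stood lower without a call: Cdc20 had 1199 and 1109 in WT and 875 and 617 in RingKO, and Ube2c, the ubiquitin-conjugating enzyme of the anaphase-promoting complex, had 890.4 and 819 in WT and 654 and 517 in RingKO.

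Among spindle and chromosome genes, Kif11, the motor that separates the spindle poles, had 615 and 657 normalised reads in WT and 421 and 297 in RingKO and fell by 0.65 on the log2 scale (SE 0.17, edgeR; authors' adjusted p = 0.00731). Mki67, the coat protein of mitotic chromosomes used as a marker of dividing cells, had 3294 and 3457 in WT and 2377 and 2065 in RingKO (-0.42 ± 0.14, authors' adjusted p = 0.0350, edgeR adjusted p = 0.104). Top2a, which untangles sister DNA, had 2351 and 2450.1 in WT and 1906 and 1222 in RingKO and was not called (authors' adjusted p = 0.246). Its libraries did not overlap, and RingKO also lay below WT without overlap for 51.9% of entries with a mean of at least 50. The centromere histone Cenpa, the kinetochore motor Cenpe and the kinetochore protein Cenpf were not called, with edgeR log2 fold changes of -0.25 ± 0.15, -0.35 ± 0.13 and -0.19 ± 0.16. Bub1, Kif20a, Tpx2, Nusap1 and Birc5 were counted on entries with 0 to 72 reads a library and were not called.

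The members with low counts were genes with several curated transcripts, and whether this lowered their counts was not tested. All 10 members with a mean under 50 have several curated RefSeq transcripts, as do 9 of the 37 others, and each table lists 1 entry for most of them. Kif20a has 3 curated transcripts and 3 entries in the table of WT and RingKO, and its count was still low. The values of Cdc6, Gins1, Cdc45, Tyms, Ccne2, Bub1, Kif20a, Tpx2, Nusap1 and Birc5 are those of the listed entry and not of the gene.

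**Figure D2:**
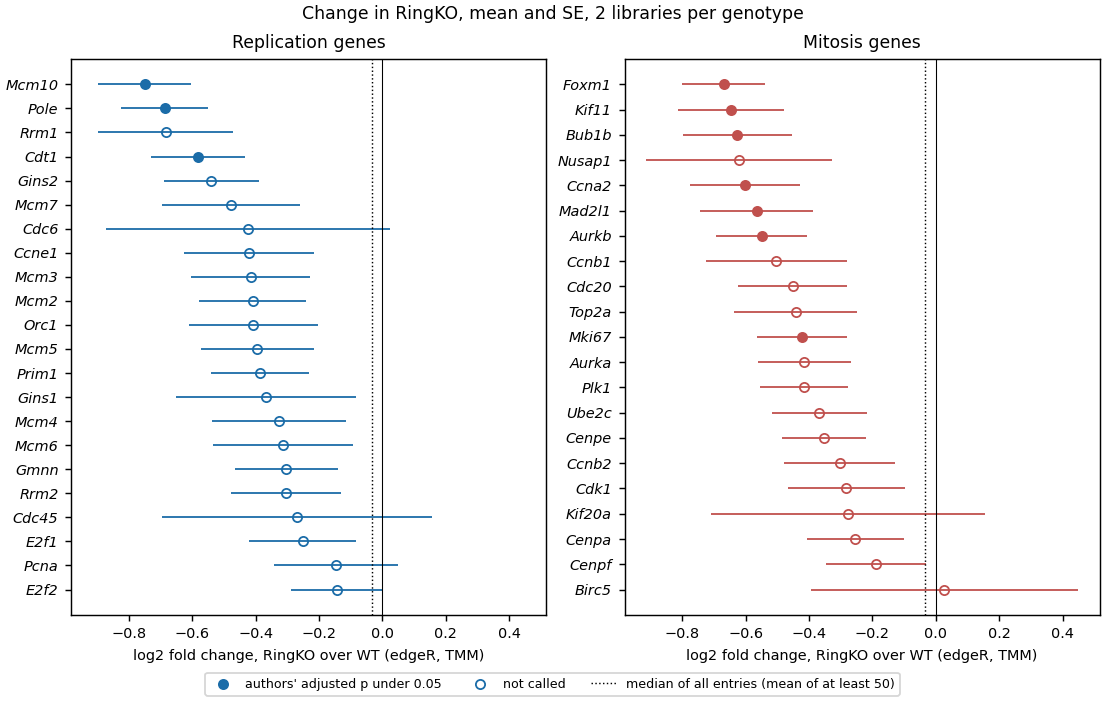
The edgeR log2 fold change of RingKO over WT with its SE (TMM scaling, 2 libraries per genotype) for the 43 members tested, replication on the left and mitosis on the right. Filled points passed the authors' adjusted p of 0.05, and the dotted line is the median of all entries with a mean of at least 50, at -0.03, which lies right of every member drawn except Birc5.

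The size of the difference depended on the RingKO library. Library B was below library A for 40 of 47 members, with a median log2 difference of -0.45 and of -0.68 for Mcm2 to Mcm7, while the entries with a mean of at least 50 had a median of -0.12 and 63.8% of them were lower in B. The WT libraries differed by a median of 0.02 over the members. Members kept a median of 75.8% of the WT mean in library A and 55.0% in library B. Foxm1 (55.4% and 55.3%), Plk1 (63.6% and 68.3%) and E2f2 (76.6% and 82.8%) were level between the libraries or higher in B. Both RingKO libraries lay below both WT libraries for 41 of 47 members, beside 33.6% of all entries and 51.9% of those with a mean of at least 50. After TMM scaling, with factors taken over all entries, this held for 36 of 47, and for 32 of the 37 with a mean of at least 50. The share was 35.4% of the entries above that mean.

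With every library kept, other tests called fewer members, all of them lower. The edgeR quasi-likelihood test called 6 (Cdt1, Mcm10, Pole, Foxm1, Aurkb and Kif11) with 2.95% of entries called lower, DESeq2 called 9 with 1.89%, and limma-trend called 5 with 2.58%. With median-ratio factors edgeR called 6 (2.86% of entries), and without a filter on low counts 5 (1.71%). Leaving out RingKO library A, edgeR called 32 members with 11.0% of entries called lower, and leaving out RingKO library B it called 12 with 4.9%. Leaving out WT library A or WT library B, it called 0 members, with 7 and 10 at an unadjusted p under 0.05, where 0.8% and 0.764% of entries were called lower. Without WT library A the log2 fold changes of the 10 called members ran from -0.46 for Mki67 to -0.75 for Pole, and without WT library B from -0.41 for Mki67 to -0.80 for Mcm10.

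Markers of other cells moved alongside. Over all entries the authors' test called 1.76% lower and 3.14% higher, and the share that edgeR called higher was not computed. The 10 Paneth cell markers summed to 18958 and 13216 normalised reads in WT and to 39376 and 50209 in RingKO, with 7 of the 10 called higher and all 10 with reads in every library. For 10 Lgr5 stem cell markers the sums came to 30620 and 35535 in WT and 23923 and 11561 in RingKO, with 3 of 10 called lower, and for 10 enteroendocrine markers 6671 and 7944 in WT and 2782 and 2954 in RingKO, with 7 called lower. The 18 measured dissociation genes, which rise when tissue is digested, summed to 43585 and 53518 in WT and 63606 and 75923 in RingKO, with 3 called higher by the authors' test and 12 by edgeR. RingKO library B, in which most members were lowest, thus had the highest Paneth and dissociation sums and the lowest stem cell sum. Leukocyte markers summed to between 131 and 151 in the 4 libraries with Ptprc at 0 to 2 reads. Stromal and endothelial markers summed to 193 and 178 in WT and 85.3 and 66.1 in RingKO, with 1 of 10 called lower. Gene by gene that list did not fall as its sum did, with 3 of 10 below 0 in the authors' deposited table. Its median log2 fold change was 0.40 there and -0.05 in edgeR, and 1 of the 10 had a mean of at least 50. Tuft cell markers summed to 791 and 793 in WT and 209 and 246 in RingKO, with 4 of 6 called lower. The part of the Paneth, stem cell, enteroendocrine, tuft, stromal and dissociation signals in the lower member levels was not tested.

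The ratio of replication to mitosis reads in RingKO lay around that in WT. Over the 45 members in both tables, the replication genes summed to 3797 and 3803 RPM (reads scaled to the library total) in WT and to 3198 and 2337 in RingKO. The mitosis genes summed to 3947 and 3830 in WT and to 3004 and 2548 in RingKO. Replication over mitosis was 0.962 and 0.993 in WT and 1.06 and 0.917 in RingKO, so that the RingKO values lay on both sides of the WT values. The mean log2 ratio differed by 0.02 between the genotypes, less than the spread between the RingKO libraries. Together the 45 genes took 0.774% and 0.763% of reads in WT and 0.620% and 0.489% in RingKO. With 2 libraries against 2 no permutation test could pass 0.05, and none was made.

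**Figure D3:**
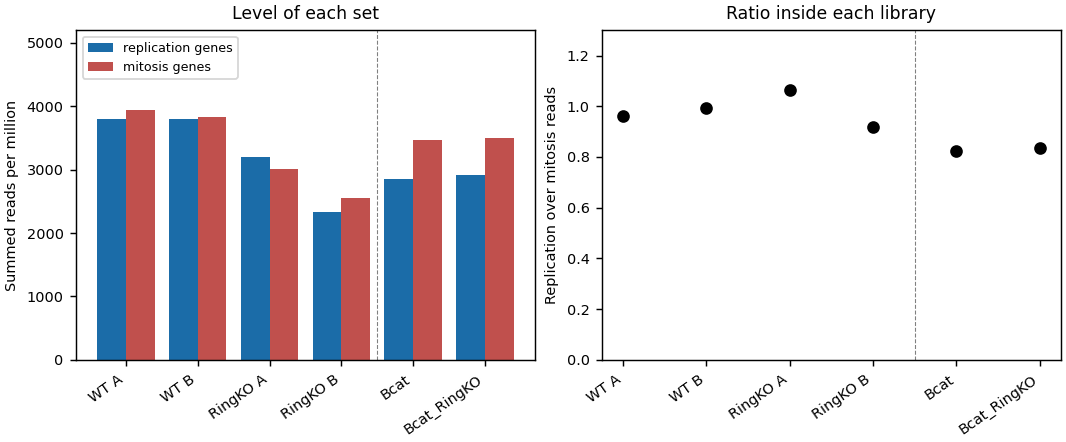
Left, summed RPM of the replication genes (24) and mitosis genes (21) in each of the 6 libraries, and right, the ratio of the 2 sums inside each library. Both sums are lower in the RingKO libraries than in WT, and the ratio runs from 0.822 in Bcat to 1.06 in RingKO library A.

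In cells with the Ctnnb1-ex3 allele the members' ratios of Bcat_RingKO over Bcat lay on both sides of 1. With 1 library per group there is no replicate check, and ratios of Bcat_RingKO over Bcat carry an exact 95% counting interval (Clopper-Pearson), which covers counting error only. Of the 44 members with reads in both libraries, 19 were above 1 and 25 below, with a median of 0.918, while the entries with a mean of at least 50 had a median of 1.19. The ratio was above 2 for Pole, Ccne1, Mki67 and Birc5 and under 1/2 for Tyms, Mad2l1, Ube2c and Nusap1. That is 4 members each way, beside 26.1% of the entries with reads in both above 2 and 12.6% under 1/2. The intervals of Birc5 and Tyms held 1. The interval lay above 1 for 12 members and below 1 for 16, beside 33.8% and 17.9% of those entries. These shares include entries with few reads, whose intervals are wide, and were not taken over well-read entries alone. Past 1.5-fold there were 10 higher and 12 lower, beside 38.6% and 21.2%. TMM scaling lowers each log2 ratio by 0.22, after which 3 members were above 2 and 8 under 1/2. The members' share of reads was 0.632% in Bcat and 0.642% in Bcat_RingKO.

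Of the replication genes, the helicase subunits Mcm2 (313 normalised reads in Bcat, 491 in Bcat_RingKO, ratio 1.57, interval 1.31 to 1.88) and Mcm4 (255 and 403, ratio 1.58) were higher, and Mcm6 (731 and 632, ratio 0.864, interval 0.766 to 0.978) was lower. Ccne1, the cyclin that opens S phase, had 18 reads in Bcat and 247 in Bcat_RingKO, a ratio of 2.74 with an interval of 1.70 to 4.71. E2f1 and E2f2 had ratios of 0.661 and 0.669, and the clamp Pcna went from 899 to 475 normalised reads, a ratio of 0.528 (0.471 to 0.594). Pole had a ratio of 2.01 (1.49 to 2.77) and Mcm10 of 1.83 (1.38 to 2.46).

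Of the mitosis genes, Mki67 went from 579 to 1555 normalised reads, a ratio of 2.68 (2.37 to 3.06). Those of the cyclin-Cdk1 engine had ratios under 1: Ccna2 was at 704 and 368 (0.523, interval 0.458 to 0.597), Cdk1 at 436 and 237 (0.545), Ccnb1 at 358 and 260.3 (0.728) and Ccnb2 at 400.3 and 275 (0.688). Mad2l1 was at 414 and 183 (0.443, interval 0.372 to 0.530) and Ube2c at 505 and 241 (0.477, interval 0.408 to 0.560). Foxm1 (1.16) and Kif11 (1.05), called lower in RingKO, had intervals that held 1.

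The ratio in this pair went with transcript length. In entries with a mean of at least 50 the median ratio was 0.732 for transcripts up to 1500 bases, 1.09 up to 2500, 1.29 up to 4000, 1.40 up to 6000 and 1.75 above, and the members' medians were 0.566, 0.771, 0.957, 0.872 and 1.96. The 4 members over 6000 bases were Pole, Cenpe, Cenpf and Mki67, with ratios from 1.66 to 2.68, and Ube2c, Gmnn, Cenpa and Gins1 were those up to 1500. Across the 37 members with a mean of at least 50, log2 length and log2 ratio had a Pearson r of 0.58 and a Spearman rho of 0.55, and across 7301 entries 0.37 and 0.38. These are descriptions across genes of the same 2 libraries, which are not independent. In RingKO over WT length and log2 fold change had an r of -0.14 and a rho of -0.22 across the 43 members tested, and -0.06 and -0.15 across 7879 entries. Relative to the 500 entries of nearest length, 31 of 44 members were lower in the Bcat pair, with a median log2 difference of -0.47. These were 14 of 23 replication genes and 17 of 21 mitosis genes. By that measure 2 members were more than 2-fold higher (Ccne1 and Birc5) and 7 lower (Tyms, E2f2, Ccna2, Cdk1, Mad2l1, Kif20a and Nusap1). Of these, Birc5 (2 reads in Bcat and 31 in Bcat_RingKO), Tyms (2 and 3) and Kif20a (3 and 9) had ratios whose counting intervals held 1. The part of length in the ratios was not tested.

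**Figure D4:**
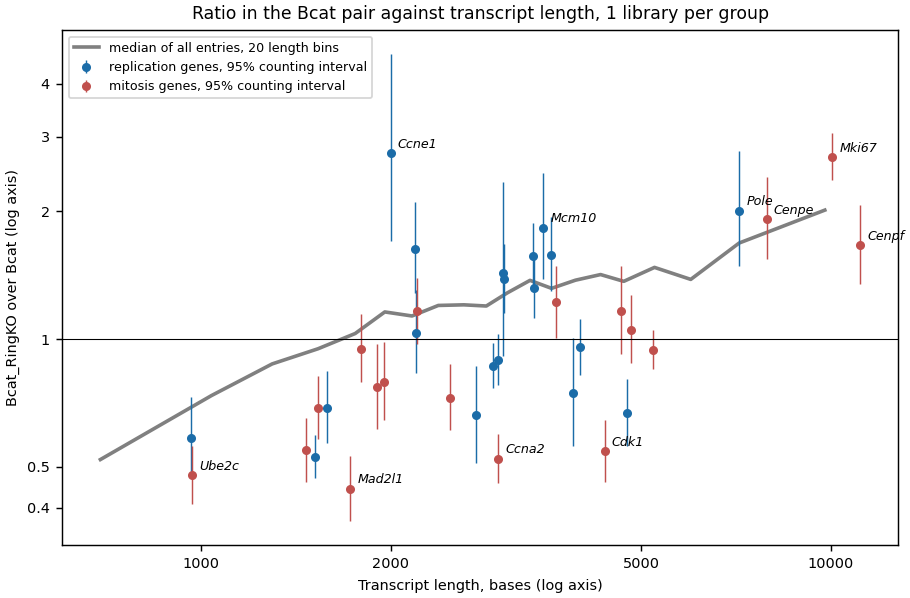
Ratio of normalised reads in Bcat_RingKO over Bcat (log axis) against transcript length in bases (log axis) for the 37 members with a mean of at least 50, with exact 95% counting intervals, and the median of all such entries in 20 length bins (grey line). The grey line climbs with length, and at the right Mki67 stands above it and Pole, Cenpe and Cenpf near it, while Ccna2, Cdk1 and Mad2l1 lie below it.

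Replication over mitosis was 0.822 in Bcat and 0.834 in Bcat_RingKO from summed reads. Per kilobase of transcript it was 0.862 and 1.03, and from mean log2 levels the pair differed by 0.22. The tables were scaled separately, which drops out of a ratio inside a library, but no test compares 1 library with 1. Paneth markers summed to 10671 in Bcat and 2841 in Bcat_RingKO, enterocyte markers to 13721 and 4776 and enteroendocrine markers to 4577 and 741. Lgr5 stem cell markers summed to 9300 and 6681. Over 9 of these markers the median ratio was 1.15, with 3 above 2 and 2 under 1/2, and Lgr5 itself had a ratio of 2.06. Higher in Bcat_RingKO were the sums of dissociation genes (10704 and 15432), goblet markers (6277 and 6464) and stromal and endothelial markers (244 and 278). Gene by gene, the median ratio was 3.81 for dissociation genes. For goblet markers it was 0.860, with 3 of 8 above 2 and 3 under 1/2. For stromal and endothelial markers it was 0.0667, with 1 of 5 above 2 and 4 under 1/2. The part of these signals in the member ratios was not tested. Across the 37 members with a mean of at least 50 the RingKO over WT and Bcat pair log2 values had an r of -0.26, a description with no shared libraries.

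Other genes of the cell cycle, from lists drawn up apart from the members, were read in the same way, beside the 3.69% of entries with a mean of at least 50 that were called lower, 14.5% that were lower unadjusted and 72.3% that lay below 0. Of 47 measured other replication genes 3 fell and 0 rose (17 and 0 at an unadjusted p under 0.05), with 44 below 0 and a median log2 fold change of -0.53 in the deposited table. They included Dna2, a nuclease-helicase that trims flaps, and Clspn, the adaptor of the replication checkpoint, at log2 values of -0.81 ± 0.15 and -0.74 ± 0.18 (SE, edgeR). Of 69 other mitosis genes 10 fell and 0 rose (39 and 0 unadjusted), with 64 below 0 and a median of -0.65. They included the motors Kif15 (-0.92 ± 0.19) and Kif4 (-0.77 ± 0.19), the cytokinesis kinase Cit (-0.85 ± 0.18), the condensin subunits Ncapd2 (-0.62 ± 0.16) and Ncapg2 (-0.90 ± 0.19), and the protease Espl1, which cuts cohesin (-0.68 ± 0.14). Of 15 checkpoint genes 1 fell, which was Mdc1, an adaptor at DNA breaks (-0.67 ± 0.14).

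In the lists upstream of the cycle the authors' test called 2 genes. Over all entries it called 1.76% lower and 3.14% higher. The edgeR test called 2.95% of entries tested lower, and the share it called higher was not computed. Of 17 E2F, pocket protein and DREAM complex genes the authors' test, edgeR, DESeq2 and limma called 0, with 3 lower at an unadjusted p under 0.05 and a median of -0.45. Of 11 G1 cyclins, their kinases and phosphatase 1 fell, the kinase Cdk6, while edgeR called 1 lower and 2 higher. Cdk6 had 246 and 241 WT reads and 38 and 65 RingKO reads before scaling to library size. After scaling, its group means were 164 in WT and 75.1 in RingKO, with a log2 fold change of -0.96 ± 0.26 (SE, edgeR). DESeq2 did not call Cdk6 (adjusted p = 0.0760). Of 7 CDK inhibitors 1 rose (4 with edgeR): Cdkn2a, which encodes p16 and p19Arf, had 0 reads in both WT libraries and 22 and 31 in RingKO, and 0 in Bcat and 45 in Bcat_RingKO. The median of that list was 0.61, from 7 genes of which 4 had a mean of at least 50.

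**Figure D5:**
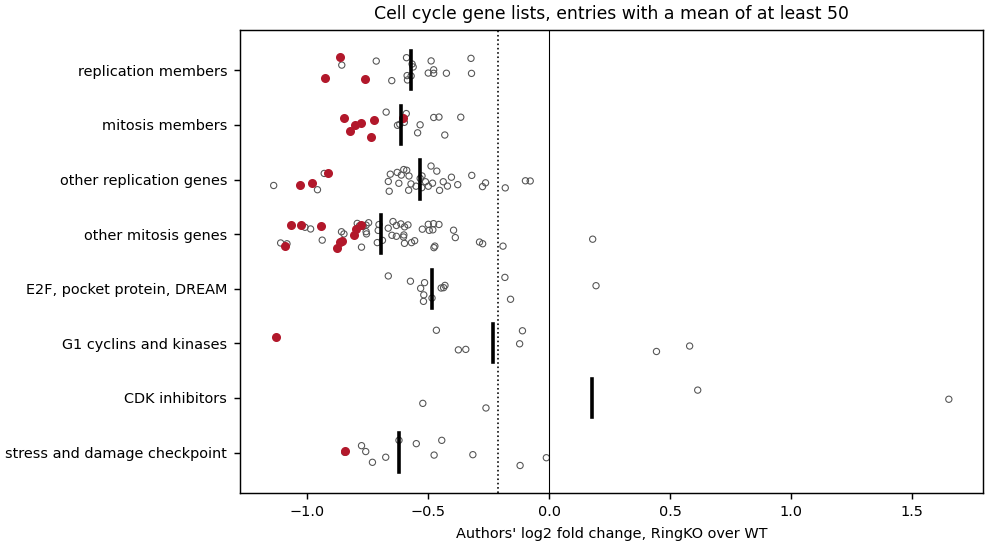
Log2 fold change of RingKO over WT from the authors' deposited table for the members and the wider lists, 1 point per gene with a mean of at least 50, filled where the adjusted p was under 0.05, with the list median as a bar. The dotted line is the median of all entries with that mean, -0.21, and the replication and mitosis lists lie mostly left of it. Cdkn2a is below that mean and is not drawn.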

How the data were processed

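TopHat, DESeq and the mouse build mm9 are named in the submitters' processing notes without versions, and the sources used here give no counter, annotation or strand setting. The authors deposited 2 tables with 1 line per RefSeq entry, scaled separately. Values are normalised coverage (signal) per entry, as group means for WT and RingKO and per library for the Bcat pair, and the values show that every deposited signal equals 1 plus the read count, over a size factor. The authors also deposited a fold (ratio), its log2 value and a p-value per entry, and for the first table an adjusted p-value, which was the call rule at 0.05. Reads of single libraries were recovered from the group means: 18367 of 18376 WT values and all 18376 RingKO values had 1 solution, and 100% of Bcat values were whole within 0.001. The letters A and B for libraries are arbitrary.

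The log2 changes and their SE are from edgeR 4.0.16 (quasi-likelihood, TMM, filterByExpr, Benjamini-Hochberg over all entries tested), on the recovered reads, because the first table holds only means. DESeq2 1.42.0 and limma 3.58.1 were alternatives, and all were tested on simulated data. Transcript lengths are those of linked GENCODE M21 transcripts, found for 97.8% of entries. Promoters are RefSeq's, and for 29 of 39 member entries the bases after the start occur in a transcript of the gene. The text names all 48 members and up to 6 called genes of each wider list by smallest adjusted p. A called gene of the wider lists is not reported here. Members and lists were chosen with earlier results of these data known. Per-sample columns left unused numbered 0.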

Additional observations from a re-analysis of the deposited data

Results flagged for a closer look

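Of the 10 genes called lower in RingKO, 5 had a Bcat_RingKO over Bcat ratio whose counting interval lay above 1. The share was 33.8% over all entries with reads in both libraries. That background includes entries with few reads, whose intervals are wide, and the share among well-read entries was not computed. The median ratio of entries with a mean of at least 50 was 1.19. The difference between the contrasts was not tested, because the Bcat pair has 1 library per group. Cdt1, the helicase loader, stood at -0.76 (log2, RingKO over WT, authors' deposited table) and had a ratio of 1.63 in the Bcat pair. Mcm10, which activates the helicase, was at -0.93 and 1.83. Pole, the leading-strand polymerase, was at -0.87 and 2.01. Bub1b, the checkpoint gene, was at -0.80 and 1.22, with an interval that began at 1.01 and a log2 ratio of -0.10 relative to entries of like length. Mki67, the marker of dividing cells, was at -0.60 and 2.68. After TMM scaling the ratios were 1.40, 1.58, 1.73, 1.05 and 2.31. Pole and Mki67 are among the 4 members with transcripts over 6000 bases, where the median ratio of all entries was 1.75.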

How the results depend on the processing

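The 10 members called lower by the authors' test became 6 with edgeR (TMM), 5 with limma-trend, 6 with median-ratio factors and 5 without a filter on low counts, while DESeq2 called 9, of which 8 were among the 10. Leaving out 1 library gave 0 to 32 calls: 0 without WT library A or B, 32 without RingKO library A and 12 without RingKO library B, the group left with 1 library being assumed to vary like the other. No member was called higher in these 9 fits. The entry with the lowest mean in place of the highest left the count at 10. Only Ccne2 and Kif20a, neither of them called, had several entries, so this swap touched none of the called members. Leaving out 1 library, the replication median log2 fold change ran from -0.66 without RingKO library A to -0.17 without RingKO library B, and the mitosis median from -0.55 to -0.33, and in the authors' deposited table they were -0.54 and -0.60. Both were below 0 in each alternative run. Relative to entries of like length, a comparison chosen after seeing the data, they were -0.36 and -0.43. In the Bcat pair the log2 difference of the replication to mitosis ratio was 0.02 from sums, 0.25 per kilobase and 0.22 from mean log2 levels. Members past 2-fold there numbered 8, with 11 by TMM, 8 by total reads, 6 with an interval that excluded 1 and 22 past 1.5-fold. The cause of these shifts was not tested. No paired analysis was possible because the columns hold group means and the recovered libraries carry no replicate numbers. Depth limits the Bcat library most, and entries with few reads (Cdc6, Tyms, Ccne2, Birc5) have intervals too wide for a direction.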
